A study of Mus musculus with 28 samples.

Results

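Replication-dependent histone genes encode the bulk of the histones that package newly made DNA. They were chosen by symbol: genes named Hist1h to Hist4h in the older nomenclature or by the newer H1f, H2ac, H2bc, H3c and H4c names, matched by Ensembl ID. This gave 70 genes of 55413 listed: 6 linker histone genes (H1), 20 H2A, 19 H2B, 12 H3 and 13 H4 genes, of which 56 lie on chromosome 13, 10 on chromosome 3, 3 on chromosome 11 and 1 on chromosome 6. They were followed in spleen T cells, isolated with magnetic beads and labelled CD3+, from male C57BL/6J mice aged 8 to 12 weeks. Each library is 1 mouse, and each file gives 1 value per gene, although the series' design text speaks of single cells. The rPS group (n = 5) received rapamycin, an inhibitor of the growth-regulating kinase mTOR, loaded into polymersomes, which are hollow vesicles of the block copolymer PEG-b-PPS, under the skin at 1 mg rapamycin and 60 mg polymer per kg. PS mice (n = 4) received the empty polymersomes at the same polymer dose. Group R (n = 6) had free rapamycin in 0.2% CMC under the skin and group RO (n = 6) had Rapamune, an oral rapamycin product, by gavage, both at 1 mg per kg. Treated mice had 11 daily doses. NT mice (n = 7) were untreated, so no group here received CMC or gavage without drug.

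In textbook terms, H2A, H2B, H3 and H4 proteins form the core around which DNA is wrapped, and linker H1 binds where DNA enters and leaves it. Most of these genes sit in clusters, lack introns and are transcribed in S phase, when Npat activates them. Their mRNAs generally end not in a poly(A) tail but in a short stem-loop that the protein Slbp binds. Some histone genes also give longer, polyadenylated transcripts, mainly in cells that have stopped dividing. The stem-loop was found in the annotated transcript of 44 of the 70 genes (62.9%) and in 17 of 55380 other annotated genes (0.0307%). The following 6 forms, written as DNA with the 6-base stem arms in capitals and the 4-base loop in lower case, are shown because they set the H4 genes apart from the other classes.
H1, H2A, H2B and H3 genes, commonest form: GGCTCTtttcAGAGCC
H1, H2B and H3 genes, including Hist1h2bk and Hist1h2bb: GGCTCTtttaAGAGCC
1 H2A gene: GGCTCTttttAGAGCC
H4 genes, commonest form: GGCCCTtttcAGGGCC
H4 genes, second form: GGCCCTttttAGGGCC
H4 genes, a further form, including Hist1h4j: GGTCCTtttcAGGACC
The first form was held by 26 genes, among them 10 H2A and 8 H2B genes, the second by 6 genes and the H2A form by 1 gene. All 11 H4 genes with a stem-loop had one of the 3 H4 forms, which 7, 2 and 2 genes held.

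Total counts ran from 4286885 to 15696529 per library over the 27 libraries used, so that 3 counts, the limit that a count of 0 allows, equal 0.191 to 0.700 CPM (a gene's counts scaled to a common library total). RO replicate 7 listed 0 for every gene of chromosomes 13 to 19, X, Y and M, and was left out of all values below unless named. Cell markers differed between libraries: by the mean of the T cell list against that of the monocyte and macrophage list, 7 of the 27 libraries were poor in T cells, namely replicate 3 of both R and RO and replicates 3, 4, 5, 7 and 8 of NT. No T cell list gene was at 0 throughout any group, and T cell sums ran from 1554 to 3959 CPM in rPS libraries and from 2596 to 3575 CPM in PS libraries. They ran from 188 to 2273 CPM in R libraries, from 698 to 3302 CPM in RO libraries and from 326 to 4496 CPM in NT libraries. This split sets T cells against monocytes and macrophages only, and B cell sums differed too. Those ran from 471 to 4939 CPM in rPS, 2697 to 4007 in PS and 1446 to 5528 in R libraries. In RO and NT libraries they ran from 1792 to 4343 and from 2219 to 5651 CPM. In rPS replicate 4, not counted as poor, B cell genes summed to 4939 CPM and T cell genes to 1554 CPM. All 7 NT libraries list Malat1 and mt-Rnr2 at 0, while the 20 others have at least 1854 CPM of each, a difference in the deposited values that cannot be told apart from the comparison of any group with NT. In bulk RNA, fewer cells of a type and less RNA per cell cannot be told apart.

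Of the 70 genes, 62 passed the filter on low counts and were tested: 5 H1, 16 H2A, 17 H2B, 11 H3 and 13 H4 genes. The 8 others were low everywhere. Hist1h2aa and Hist1h2ba, known as testis histones, were at 0 in all 27 libraries, and the testis linker histone Hist1h1t reached 0.86 CPM at most. Hist1h2aj and Hist1h2al, both annotated as pseudogenes, reached 0.26 and 0.779 CPM, and Hist1h2bq, Hist2h2aa1 and Hist2h3c1 reached 0.923, 1.61 and 3.35 CPM.

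By CPM per kilobase of transcript, the linker histone gene Hist1h1c was highest, with a mean of 220 over the 27 libraries, followed by the H4 genes Hist1h4h at 185 and Hist1h4f at 129, the linker histone gene Hist1h1e at 106 and Hist1h4c at 87.6. Hist1h1c alone held 19.1% of the mean summed histone CPM, and the 10 genes with the highest CPM held 63.1%. Those 10 were Hist1h1c, Hist1h1e, Hist1h1d, Hist1h4d, Hist1h4h, Hist1h4c, Hist1h3e, Hist3h2a, Hist1h4f and Hist1h3f. Libraries of 1 group differed as a block: NT replicate 2 was the highest NT library for 51 of the 62 genes and NT replicate 5 the lowest for 46. In R, replicate 3 was lowest for 49 genes and replicate 7 highest for 33, and in rPS, replicate 4 was highest for 37 and replicate 5 lowest for 30.

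Most of the histone genes tested fell in rPS mice relative to NT mice, and of the 5 classes H2B genes had the lowest median. By edgeR's quasi-likelihood test with Benjamini-Hochberg adjustment over 17132 genes, 37 of the 62 genes were lower at an adjusted p under 0.05 and 0 were higher, where 10.9% of all genes tested were lower. The median log2 fold change of the 62 genes was -1.45, against -0.01 for all genes tested, and 61 of the 62 were below 0. Among H2B genes 14 of 17 fell (median -2.35), among H2A genes 10 of 16 (median -1.39), among H4 genes 7 of 13 (median -1.38), among H3 genes 5 of 11 (median -1.10) and among linker H1 genes 1 of 5 (median -0.62). The 14 H2B genes include Hist3h2bb-ps on chromosome 11, annotated as a processed pseudogene (log2 fold change -1.5 ± 0.51 SE, edgeR adjusted p = 0.0388). On chromosome 13, 33 of 50 genes fell (median -1.68), and on other chromosomes 4 of 12 (median -0.70). Among the 37 genes, Hist2h2aa2 lay under the limit that a count of 0 allows in every rPS library (at most 0.299 CPM). Hist1h2bp lay at or under that limit in every rPS library, and Hist1h2br reached at most 0.585 CPM there. The sizes of these fold changes are therefore uncertain. The groups' CPM did not overlap for 5 of the 62 genes (Hist1h1b, Hist1h2ad, Hist1h2bk, Hist1h4f and Hist1h4j), where 3.21% of all genes did not overlap in either direction.

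Hist1h2bk, an H2B gene, changed most. It stood at 0.56, 0.78, 0.47, 0.78 and 0.58 CPM in rPS libraries, at 2.82, 4.22, 5.69 and 3.76 CPM in PS libraries, and at 3.81, 4.24, 2.71, 2.47 and 3.18 CPM in RO libraries. In R libraries it ran from 2.21 over a median of 4.32 to 7.95 CPM, and in NT libraries from 2.45 over a median of 9.71 to 18.7 CPM. Every rPS library was below every library of the other 4 groups, although the rPS values rest on 2 to 7 counts each, where 3 counts is the limit that a count of 0 allows. The log2 fold change in rPS against NT was -4.10 ± 0.48 (SE; edgeR adjusted p = 2.83e-05), and leaving out any 1 rPS or NT library kept it between -4.27 and -3.89.

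Hist1h2bb, another H2B gene, measured 1.87, 5.44, 3.73, 1.68 and 3.12 CPM in rPS libraries, against a lowest value of 4.48, a median of 26.3 and a highest value of 61.9 CPM in NT libraries. The lowest NT value belonged to replicate 5, and it alone fell within the rPS range. The log2 fold change was -3.17 ± 0.50 (SE; edgeR adjusted p = 0.000386). For Hist1h2bj, 2.24, 1.78, 3.03, 1.55 and 1.75 CPM in rPS libraries stood against 2.04, 16.4 and 32.5 CPM (lowest, median and highest) in NT libraries, again with NT replicate 5 alone inside the rPS range (log2 fold change -3.19 ± 0.56, edgeR adjusted p = 0.000868).

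**Figure D1:**
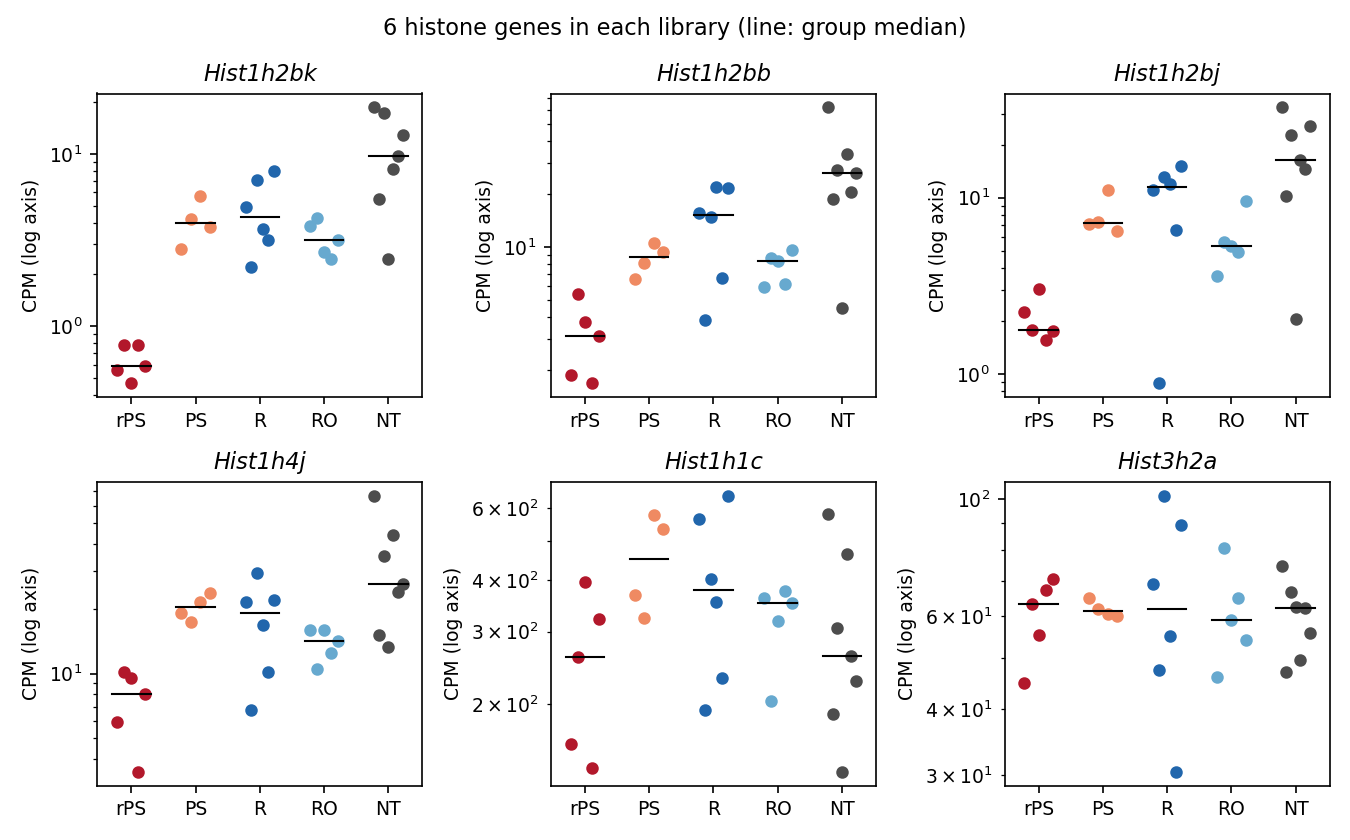
CPM on a log axis of 6 histone genes in each of the 27 libraries by group, with 1 point per library and a line at the group median. Hist1h2bk in rPS lies at 0.47 to 0.78 CPM, below every other library, while Hist3h2a has medians between 59 and 63.3 CPM in all 5 groups.

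Hist1h2bm, Hist1h2bl and Hist1h2bn, from the same chromosome 13 cluster, had log2 fold changes of -3.52 ± 0.56, -2.94 ± 0.59 and -2.93 ± 0.60 (SE; edgeR adjusted p = 0.000403, 0.00227 and 0.00263). The value of Hist1h2bl rests on 1, 15, 3, 2 and 4 counts in the rPS libraries, where 3 counts is the limit that a count of 0 allows. Hist1h2bf and Hist1h2bc fell by 2.30 and 1.92 on the log2 scale. The 3 H2B genes that did not pass were all off chromosome 13. Hist2h2be, on chromosome 3, averaged 10.1 ± 1.64 CPM in rPS, 12.3 ± 0.68 in PS, 10.7 ± 0.72 in R, 10.5 ± 0.41 in RO and 11.7 ± 2.01 CPM in NT libraries (SD, n = 5, 4, 6, 5 and 7). Its log2 fold change in rPS against NT was -0.27 ± 0.12 (SE; edgeR adjusted p = 0.107). Hist2h2bb and Hist3h2ba had log2 fold changes of -1.0 and -1.42, both with an edgeR adjusted p of 0.0646.

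A promoter was found for 62 of the 70 genes in the RefSeq table (GRCm38.p6), which gives 250 bases before to 50 after each start. Hist1h2ao and Hist1h2ap were matched to the same record (H2ac23), which is counted for each of them below. Windows of some neighbouring H2A and H2B genes on opposite strands overlap, so that the same octamer can count in both classes. Hist1h2bk with Hist1h2ah, Hist1h2bg with Hist1h2ae and Hist1h2ba with Hist1h2aa, all holding the octamer, are such pairs. Each gene of a pair is counted below. The octamer ATTTGCAT, a known element of H2B promoters bound by Oct factors, was searched on both strands and was present in 7 of 16 H2B and 7 of 18 H2A promoters, in none of the 28 H1, H3 and H4 promoters, and in 1.74% of all 32851 promoters. CCAAT was present in 53 of the 62 histone promoters (85.5%), against 37.4% of all promoters, and every H1, H2A, H2B and H3 promoter had it, but only 3 of 12 H4 promoters did. TATAAA was present in 56.5% of histone promoters and in 13.6% of all. The 100 bases from 120 to 21 before the start are shown for 3 H2B genes that fell, the H4 gene that fell most, and an H2A and a linker gene that did not pass the test, with these 3 motifs, on either strand, in capitals.
Hist1h2bk (H2bc12, chr13:22035701-22035800, + strand): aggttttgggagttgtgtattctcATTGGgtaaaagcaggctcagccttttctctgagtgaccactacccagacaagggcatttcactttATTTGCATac
Hist1h2bb (H2bc3, chr13:23746614-23746713, + strand): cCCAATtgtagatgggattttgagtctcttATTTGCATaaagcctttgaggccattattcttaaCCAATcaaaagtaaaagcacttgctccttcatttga
Hist1h2bj (H2bc11, chr13:22043078-22043177, + strand): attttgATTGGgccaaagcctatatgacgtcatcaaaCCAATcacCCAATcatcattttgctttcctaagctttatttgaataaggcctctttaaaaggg
Hist1h4j (H4c11, chr13:21734914-21735013, + strand): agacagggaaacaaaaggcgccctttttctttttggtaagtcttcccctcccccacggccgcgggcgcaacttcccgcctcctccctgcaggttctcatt
Hist3h2a (H2aw, chr11:58954565-58954664, + strand): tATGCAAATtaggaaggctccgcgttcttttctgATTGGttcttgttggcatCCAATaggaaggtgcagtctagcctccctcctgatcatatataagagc
Hist1h1c (H1f2, chr13:23738687-23738786, + strand): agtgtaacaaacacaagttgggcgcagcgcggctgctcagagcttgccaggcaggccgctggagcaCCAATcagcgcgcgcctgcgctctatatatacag
Hist1h2bk and Hist1h2bb, which fell, hold the octamer, and so does Hist3h2a, whose fold change was near 0. Hist1h2bj fell and has no octamer in this window. Among tested H2A and H2B genes with a promoter in the table, the median log2 fold change in rPS against NT was -1.74 for 12 genes with the octamer (9 fell) and -2.26 for 18 without it (13 fell). A match to letters is a description and no measurement of binding.

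Of the H2A genes, Hist1h2af measured 2.43, 5.22, 4.2, 1.04 and 1.75 CPM in rPS libraries, against 4.76, 17.2 and 23.3 CPM (lowest, median and highest) in NT libraries (log2 fold change -2.50 ± 0.43 SE, edgeR adjusted p = 0.000795). Only NT replicate 5 overlapped the rPS libraries. Hist1h2ag fell by 2.22 and Hist1h2ad by 2.09 on the log2 scale. Hist3h2a, an H2A gene on chromosome 11, had group means close to one another, at 60.2 ± 10.3 CPM in rPS, 61.8 ± 2.09 in PS, 65.4 ± 26.6 in R, 60.9 ± 13.1 in RO and 59.7 ± 9.68 CPM in NT libraries (SD, n = 5, 4, 6, 5 and 7). Single R libraries ran from 30.4 to 101 CPM. Its log2 fold change in rPS against NT was -0.04 ± 0.22 (SE; edgeR adjusted p = 0.900).

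Among H4 genes, Hist1h4j fell most: 5.99, 10.2, 9.56, 3.50 and 7.99 CPM in rPS libraries lay below all NT libraries, which had 13.3, 25.9 and 66.8 CPM as lowest, median and highest (log2 fold change -2.18 ± 0.38 SE, edgeR adjusted p = 0.00091). Hist1h4a (-1.47 ± 0.30, adjusted p = 0.00243 by edgeR) and Hist1h4f (-1.38 ± 0.39, adjusted p = 0.0162 by edgeR) fell less. The 3 H4 genes with the highest CPM, Hist1h4d, Hist1h4h and Hist1h4c, had log2 fold changes of -0.49, -0.54 and -0.55 with edgeR adjusted p of 0.292, 0.246 and 0.239. Of the H3 genes, Hist1h3g stood out with -2.47, and the 2 with the highest CPM, Hist1h3e and Hist1h3f, did not pass the test (-0.83 and -1.05, edgeR adjusted p = 0.198 and 0.0999).

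Of the 5 linker histone genes tested, Hist1h1b fell and 4 did not pass. Hist1h1b measured 10.7, 14.2, 18.4, 1.68 and 11.1 CPM in rPS libraries and 21.5, 38.1 and 57.6 CPM (lowest, median and highest) in NT libraries, with no overlap (log2 fold change -1.82 ± 0.39 SE, edgeR adjusted p = 0.00368). Hist1h1c, the most abundant of the histone genes, ran at 159, 259, 396, 140 and 322 CPM in rPS libraries, inside the NT range of 137 to 582 CPM with a median of 262 CPM, and its log2 fold change was -0.34 ± 0.34 (SE; edgeR adjusted p = 0.478). Hist1h1e (-0.36 ± 0.36), Hist1h1d (-0.62 ± 0.38) and Hist1h1a (-0.91 ± 0.36) did not pass either, with edgeR adjusted p of 0.493, 0.230 and 0.0672.

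**Figure D2:**
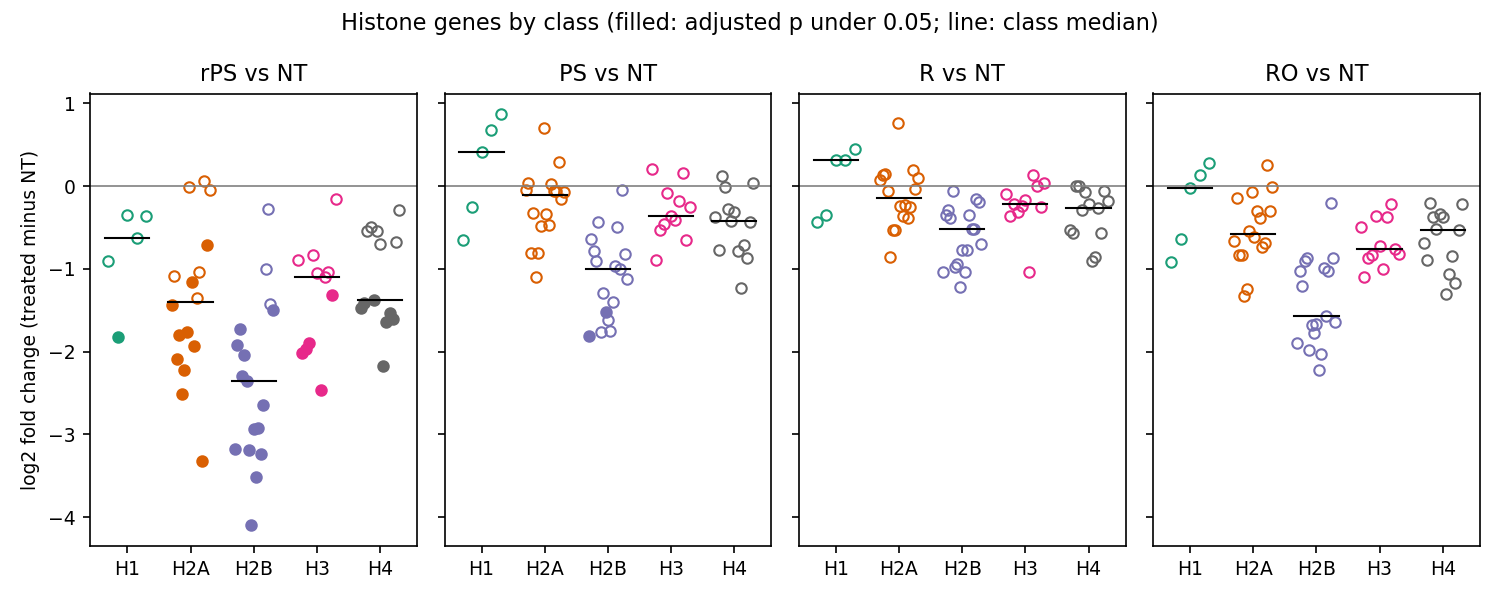
Log2 fold changes of the 62 tested histone genes against NT by class, in rPS, PS, R and RO, with 1 point per gene, filled where the adjusted p is under 0.05, and a line at the class median. The H2B median is the lowest of the 5 classes in each panel, at -2.35, -1.0, -0.52 and -1.57, and filled points number 37 in rPS, 2 in PS and 0 in R and RO.

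Among tested genes with an annotated stem-loop, the length of transcript past it differed between genes that fell and those that did not. Of 41 tested genes with a stem-loop, 21 had at most 100 bases after it, and 17 of these fell in rPS against NT (median log2 fold change -1.97). Of the 20 others, with over 100 bases after it, 6 fell (median -0.76). A further 21 tested genes had no stem-loop in their annotated transcript, and 14 of them fell (median -1.5). Within H2B, all 6 short genes fell (median -3.21) and 3 of 4 long ones (median -1.88). The short genes that fell include Hist2h2aa2 and the H2B gene Hist1h2bp, both at or under the limit that a count of 0 allows in every rPS library. Within H4, 4 of 5 short genes fell (median -1.41) and 1 of 6 long ones (median -0.61), the exception being Hist1h4j with 385 bases after the stem-loop. Hist3h2a, with 1643 bases after it, Hist1h1c with 840 and Hist1h4d with 770 were among the long genes that did not pass. In the 3 other comparisons with NT the gap, over all classes together, was smaller and in the same direction. The medians were -0.35 for the short and -0.06 for the long genes in R, -0.87 and -0.45 in RO, and -0.77 and -0.28 in PS. These comparisons share the NT libraries. The limit of 100 bases was chosen after the values were seen, so no test was made. Genes also differed in the share of their transcript's 50-base stretches that other genes hold. Such stretches made up 74.2% of the Hist1h2bk transcript and 8.54% of that of Hist1h1c. Of tested genes with over 50% shared, 21 of 29 fell (median -1.64), against 16 of the 33 others (median -1.08). For 9 of the 70 genes over 50% of the values above 0 were fractional, as where a read is split between genes. For 56 genes, Hist1h2bk among them, no value was fractional. How reads that match several genes were counted is not stated, so values of single genes with much shared sequence are uncertain.

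**Figure D3:**
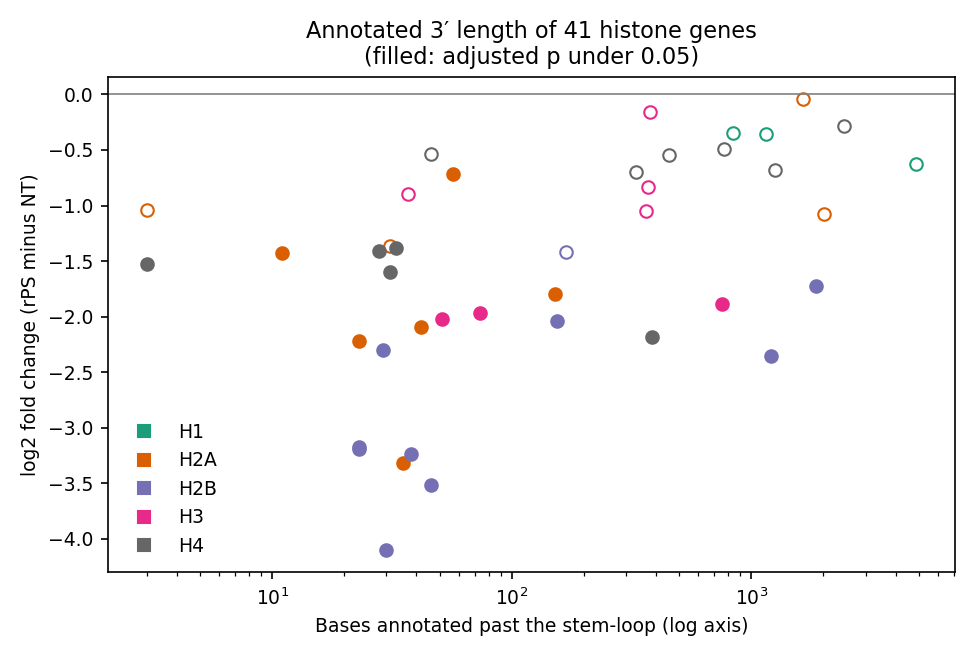
Log2 fold change in rPS against NT, plotted against the bases annotated past the stem-loop on a log axis, for the 41 tested genes with a stem-loop, colored by class and filled where the adjusted p is under 0.05. The 21 genes with at most 100 bases lie lower as a group (median -1.97) than the 20 with more (median -0.76).

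Summed over tested genes, H2B mRNA was 68.2 ± 10.9 CPM in rPS, 144 ± 28 in PS, 186 ± 85.5 in R, 112 ± 20.7 in RO and 256 ± 138 CPM in NT libraries (SD, n = 5, 4, 6, 5 and 7). The highest rPS library, at 80.1 CPM, was below the lowest of PS (120 CPM) and RO (100.3 CPM), whereas R replicate 3 (68.8 CPM) and NT replicate 5 (67.5 CPM) lay within the rPS range. Summed H1 was 483 ± 231 CPM in rPS, 1003 ± 246 in PS, 808 ± 381 in R, 690 ± 167 in RO and 639 ± 296 CPM in NT libraries, with the rPS and NT libraries overlapping widely. The make-up of the histone mRNA pool differed accordingly. H1 genes held 41% ± 2.26 of the summed histone CPM in rPS, 46.9% ± 1.53 in PS, 40.3% ± 6.19 in R, 42.2% ± 5.75 in RO and 31.5% ± 3.59 in NT libraries. Every rPS library (at least 38.3%) and every PS library (at least 44.9%) was above every NT library (at most 36.2%). The share held by H2B genes was 6.64% ± 2.47 in rPS, 6.87% ± 1.08 in PS, 9.16% ± 1.42 in R, 7.04% ± 1.49 in RO and 12.1% ± 2.53 in NT libraries. These sums follow the most abundant genes, and no test was made on them.

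**Figure D4:**
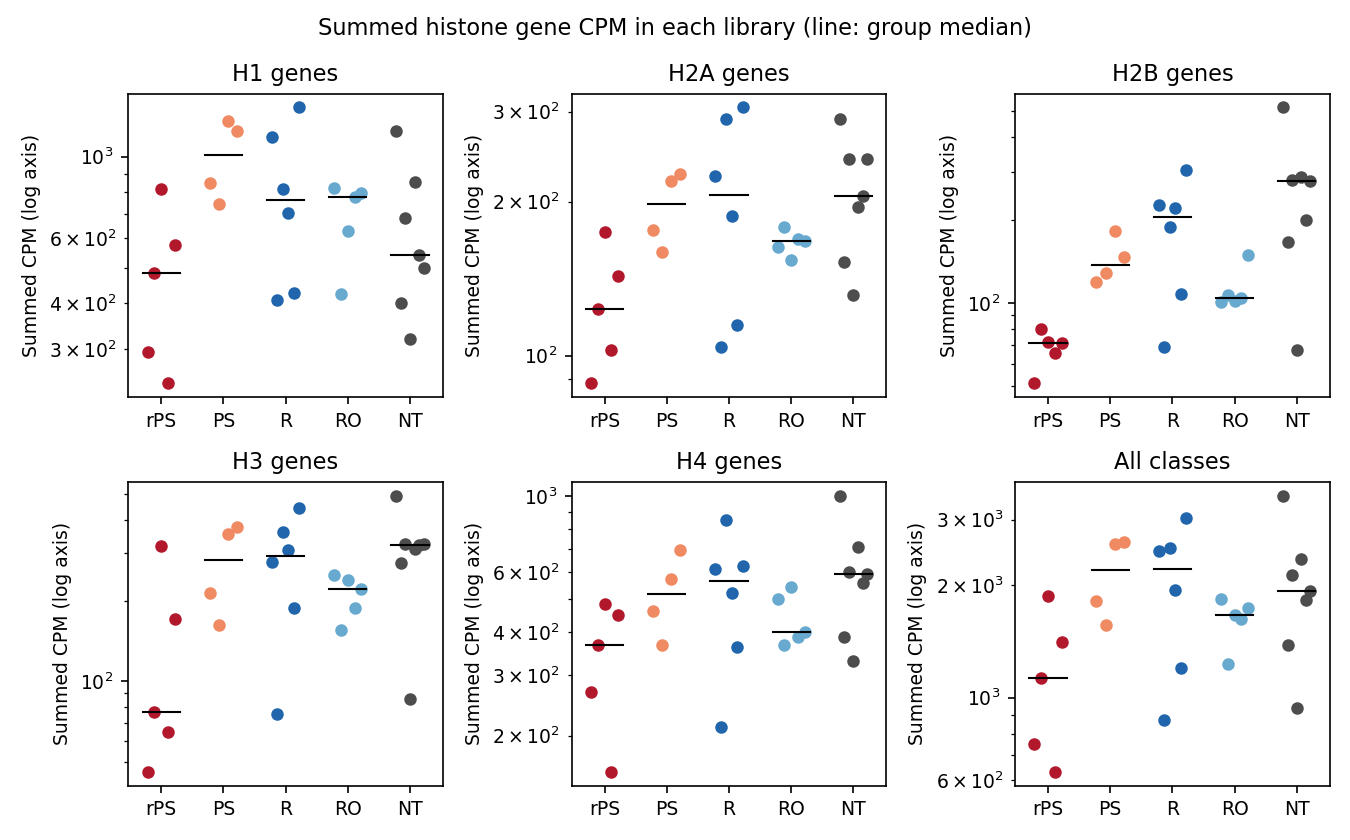
CPM summed over the tested genes of each histone class and over all 62, on log axes, with 1 point per library and a line at the group median. H2B sums in rPS lie between 50.9 and 80.1 CPM, while H1 sums in rPS (242 to 818 CPM) overlap those of NT (320 to 1177 CPM).

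In PS mice, 2 of the 62 genes fell relative to NT, both H2B genes, where 2.46% of all genes were lower: Hist1h2bb (log2 fold change -1.81 ± 0.50 SE, edgeR adjusted p = 0.0449) and Hist1h2bk (-1.52 ± 0.43 SE, edgeR adjusted p = 0.0455). Both sit close to the threshold, and 2 of 62 is near the share of all genes. An unadjusted p under 0.05 was reached by 15 of the 62 genes, against 5432 of the 17132 genes tested, a larger share. Leaving out 1 library ended the call of Hist1h2bk in 9 of 11 fits and that of Hist1h2bb in 8 of 11. In these fits 11 histone genes were lower without NT replicate 5, where 9.01% of all genes were lower. Only 4 were lower without NT replicate 6, where 7.78% of all genes were, a like share. The median over the 62 genes was -0.44, and by class it was -1.0 for H2B and 0.41 for H1 genes. Hist1h1e, at 296, 245, 405 and 359 CPM in PS libraries, against 84.0, 149 and 274 CPM (lowest, median and highest) in NT libraries, had a log2 fold change of 0.87 ± 0.38 that did not pass (SE; edgeR adjusted p = 0.120).

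With free rapamycin, 0 of the 62 genes differed between R and NT by edgeR, where 0.607% of all genes were lower, and 9 had an unadjusted p under 0.05, against 2374 of the 17132 genes tested, a like share. DESeq2 called 1, lower, and 2.10% of all genes lower. The median log2 fold change was -0.26, with -0.52 for H2B and 0.31 for H1 genes. Hist1h2bk (-1.21 ± 0.36 SE) had an edgeR adjusted p of 0.119, which was 0.0166 without NT replicate 5. Between RO and NT, edgeR called 0 of the 62 genes and 0% of all genes lower. However, 26 of the 62 had an unadjusted p under 0.05, against 2178 of the 17132 genes tested, and DESeq2 called 8, all lower, where it called 0.899% of all genes lower. The median was -0.79, with -1.57 for H2B genes, and 14 of the 17 H2B genes had an unadjusted p under 0.05. Without NT replicate 5, 12 histone genes were lower in RO than in NT, 9 of them H2B genes, where 0.712% of all genes were lower.

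The T-cell-poor libraries bear on every comparison with NT, since 5 of the 7 NT libraries are among them. Without the 7 poor libraries NT keeps replicates 2 and 6, the highest NT libraries in summed histone CPM at 3473 and 2356. They were also the highest NT libraries in summed RNAs without a poly(A) tail, at 15346 and 12219 CPM, against 797 to 5671 CPM in the other NT libraries, and the part of this in the counts was not tested. In that fit 45 of 63 genes were lower in rPS than in NT, 15 in PS, 6 in R and 18 in RO, where 8.63%, 4.65%, 2.80% and 2.63% of all genes were lower. Keeping NT replicate 5, whose T cell mean of 6.13 lies close to its monocyte and macrophage mean of 6.40 (log2 of CPM plus 1), gave 23 in rPS, where 2.30% of all genes were lower, and 0 in PS, where 0% were. It also gave 0 in R and 0 in RO, so that the counts of 15, 6 and 18 in PS, R and RO ended with this 1 library. H2B genes made up 17 of the 45 and 14 of the 23.

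Between rPS and PS, which differ in the drug, 60 of the 62 log2 fold changes were below 0, and 1 gene passed the test. This was Hist1h2bk, lower in rPS with a log2 fold change of -2.57 ± 0.51 (SE; edgeR adjusted p = 0.0405), where 0.0700% of all genes were lower, and leaving out any 1 of the 9 libraries ended its call (edgeR adjusted p between 0.0739 and 0.175). The median over the 62 genes was -1.10, and 34 had an unadjusted p under 0.05, against 852 of the 17132 genes tested. For 22 genes, 11 of them H2B genes, all rPS libraries lay below all PS libraries, where 3.28% of all genes did not overlap in either direction. Hist1h1e and Hist1h1d were among them, at -1.23 ± 0.41 and -1.30 ± 0.43 (SE; edgeR adjusted p = 0.567 and 0.514).

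Against free rapamycin, Hist1h2bk was again the 1 gene lower in rPS (-2.88 ± 0.48 SE, edgeR adjusted p = 0.0224), where 0.00584% of all genes were lower. Its call ended without any 1 of rPS replicates 4, 5 and 7 and R replicates 2, 4, 5 and 7, with an adjusted p of 0.135 at most. All 62 genes were below 0, with a median of -1.17 against -0.01 for all genes, 42 had an unadjusted p under 0.05, against 1893 of the 17132 genes tested, and DESeq2 called 14, where it called 0.163% of all genes lower. Between rPS and RO, edgeR called 0 of the 62 genes, where 0.0175% of all genes were lower. An unadjusted p under 0.05 was reached by 23, against 1389 of the 17132 genes tested, and DESeq2 called 1, where it called 0.181% of all genes lower (median -0.75). Between R and RO, which carry the same drug dose by different routes, edgeR and DESeq2 called 0 of the 62 genes, and edgeR called 0% of all genes lower. The median was 0.48, and 4 had an unadjusted p under 0.05, against 504 of the 17132 genes tested. A test of whether loading rapamycin into polymersomes changed histone genes differently from giving free rapamycin, as the difference of rPS minus PS and R minus NT, called 0 of the 62 genes by edgeR and DESeq2 (median -0.70, 13 with an unadjusted p under 0.05, against 807 of the 17132 genes tested), where edgeR called 0.0175% of all genes lower.

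Other S phase genes were set beside the histone genes in the same libraries, with no test of the difference between the lists. Over all genes tested, edgeR called 10.9% lower in rPS against NT, 2.46% in PS, 0.607% in R and 0% in RO. Of 36 genes for DNA replication, 15 fell in rPS relative to NT (median -0.52), among them Uhrf1, a maintenance factor of DNA methylation (-1.81 ± 0.24 SE, edgeR adjusted p = 0.000104), and Rrm2, a subunit of ribonucleotide reductase (-1.93 ± 0.36 SE, edgeR adjusted p = 0.00162). Pcna, the replication clamp, averaged 99.1 ± 26.0 CPM in rPS and 87.5 ± 12.7 CPM in NT libraries (SD, n = 5 and 7) and did not pass. The S phase sum was 1026 ± 101 CPM in rPS, 1162 ± 36.6 in PS, 963 ± 188 in R, 1094 ± 116 in RO and 1145 ± 60.8 CPM in NT libraries. Per library, the log2 ratio of the histone sum to the S phase sum was 0.07 ± 0.51 in rPS, 0.85 ± 0.42 in PS, 0.96 ± 0.49 in R, 0.56 ± 0.07 in RO and 0.71 ± 0.59 in NT libraries, and the rPS and NT ranges overlapped. For H2B alone the ratio lay between -4.21 and -3.77 in rPS, below all PS (-3.30 to -2.63), R (-3.19 to -1.73) and RO libraries (-3.53 to -2.96) and below all NT libraries (-4.13 to -1.20) except replicate 5. With the mean S phase level of each library as a covariate, 12 of the 62 genes were lower in rPS than in NT by edgeR, 8 of them H2B genes, and the median was -0.80. In that fit 15.1% of all genes were lower, a share that the 12 of 62 histone genes are near, and the median of all genes was -0.017. In R against NT 2 of the 36 S phase genes fell (median -0.44), in RO 0 were called (median -0.24; 1 by DESeq2), and in PS 1 rose (median -0.20). The direction of the PS calls differed by setting: DESeq2 called 1 higher and 2 lower, and without the T-cell-poor libraries 0 were higher and 1 was lower. In rPS against R, S phase genes had a median of 0.02 and 0 were called by edgeR or DESeq2.

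All 25 mitosis genes fell in rPS against NT (median -1.97), among them Top2a, which untangles DNA (-2.53 ± 0.31 SE, edgeR adjusted p = 4.3e-05), and Mki67, a marker of cycling cells (-2.04 ± 0.37 SE, edgeR adjusted p = 0.00113). Set against the mitosis sum, the histone sum stood higher in rPS than in NT libraries, with log2 ratios of 2.45 ± 0.52 and 1.33 ± 0.83, so that the direction of the ratio depends on the list it is set against.

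**Figure D5:**
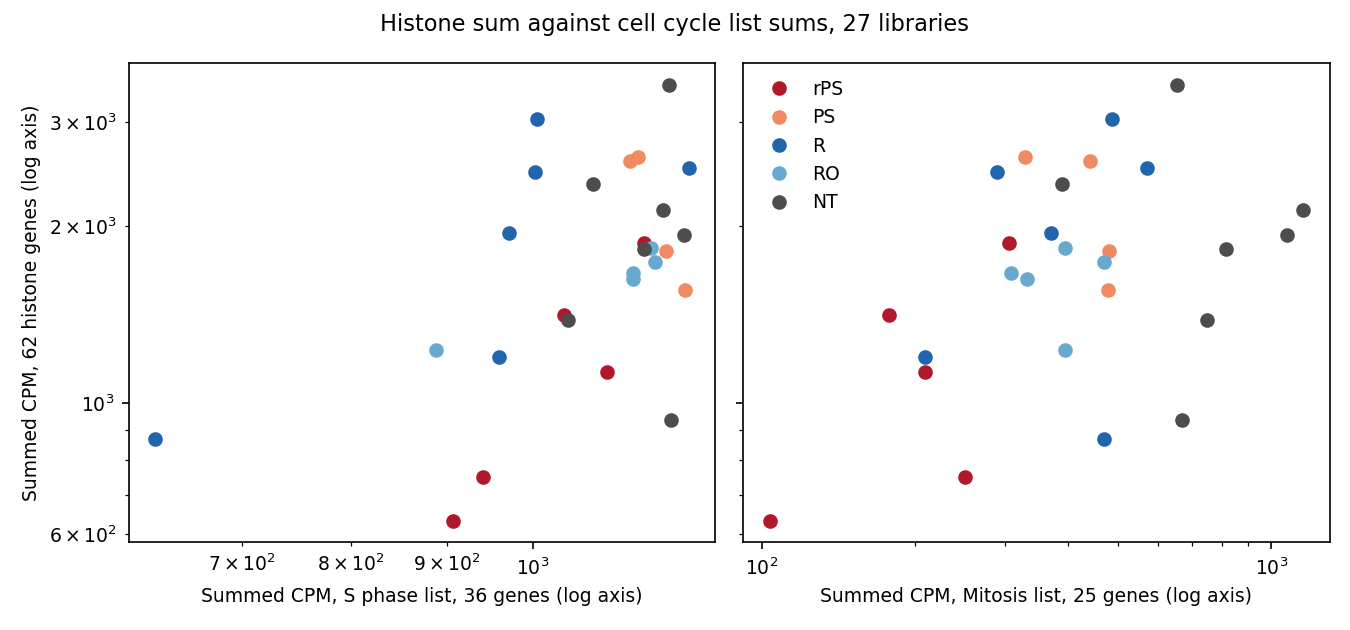
Summed CPM of the 62 tested histone genes against the summed CPM of the S phase list (left) and of the mitosis list (right), on log axes, with 1 point per library, colored by group. S phase sums span 629 to 1211 CPM over all groups, whereas mitosis sums in rPS (104 to 305 CPM) lie below all NT libraries (388 to 1155 CPM).

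Genes that make or handle histone mRNA and protein showed no common direction. Of 15 genes for histone gene expression and 3′ end processing, 2 rose and 2 fell in rPS against NT (median 0.06). In that comparison 10.9% of all genes tested were lower, and the 2 of 15 that fell are near that share. The share of all genes that were higher is not given for any comparison, so counts of genes that rose are not set against other genes. Lsm11, a part of the U7 particle that cuts histone mRNA, rose by 0.67 ± 0.14 (SE; edgeR adjusted p = 0.00242), whereas Slbp and Npat had log2 fold changes of 0.20 and -0.13 and did not pass. Of 15 histone chaperones, 2 rose and 3 fell, with Asf1b, which hands over H3 and H4 during replication, at -1.64 ± 0.35 (SE; edgeR adjusted p = 0.00327). Among 10 tested genes for replication-independent variants, 3 fell: H3f3a (-1.0), H1f0 (-1.41) and H1fx. For H1fx no fold is given, since every rPS library (at most 0.111 CPM) was under the limit that a count of 0 allows, against a mean of 0.651 CPM in NT libraries. H3f3b, the second gene for the same H3 variant as H3f3a, rose by 1.33 ± 0.27 in PS against NT (SE; edgeR adjusted p = 0.0321). RNAs that like most histone mRNAs lack a poly(A) tail give a check of how libraries captured such RNA: 1 of 5 tested fell in rPS against NT, Rmrp (-3.43 ± 1.08 SE, edgeR adjusted p = 0.0272), and their sums ran from 1150 to 6882 CPM in rPS and 797 to 15350 CPM in NT libraries. Their part in the histone result was not tested.

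Markers of other cells also moved with the comparison of rPS and NT, where 10.9% of all genes tested were lower. All 14 neutrophil genes fell (summed 21 to 143 CPM in rPS, 49.5 to 4558 CPM in NT libraries), as did 7 of 12 monocyte and macrophage genes (240 to 2298 against 870 to 10820 CPM), 8 of 8 plasma cell genes (198 to 1076 against 1033 to 5564 CPM), 5 of 7 tested germinal centre B cell genes (42.3 to 117 against 91.1 to 218 CPM) and 5 of 8 NK cell genes (127 to 182 against 114 to 357 CPM). Germinal centre B cells and plasma cell precursors divide. Of the germinal centre genes, Rgs13 was at 0 in every rPS library. Of 10 B cell genes, 1 fell, and 0 of 15 T cell and 0 of 9 erythroid genes passed, with 1 and 0 at an unadjusted p under 0.05. The part of these cells in the histone result was not tested.

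RO replicate 7 can be read for the 12 tested histone genes off chromosome 13, scaled to its counts on chromosomes 1 to 11. It stood above all 5 other RO libraries for 10 of the 12 genes and below all of them for 0. Hist2h2ac, an H2A gene on chromosome 3, was at 83.4 CPM on that scale in this library and at 40.6 to 49.8 in the other RO libraries, against 33.2 to 87.7 in NT libraries. In a fit of chromosomes 1 to 11 with all 28 libraries, 4 of these 12 genes were lower in rPS than in NT, where 11.6% of all genes tested there were lower.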

How the data were processed

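Spleen T cell RNA was sequenced, 1 library per mouse. The deposited values are expected counts per Ensembl gene, as the authors' files hold them: unscaled estimates, 23.4% of those above 0 being fractional (12.9% for histone genes). Per the submitters' processing notes, Trimmomatic 0.39, STAR 2.7.5a, Cufflinks 2.1.1 and Cuffdiff were used with GRCm39. No source used here states the counting step, strand setting or library kit. Without strand, overlapping genes cannot be told apart.

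Counts were rounded and tested with edgeR 4.0.16 (R 4.3.3): TMM, filterByExpr, robust quasi-likelihood fit of all 5 groups without RO replicate 7, Benjamini-Hochberg adjustment over 17132 genes, called under 0.05. SE is the fold change divided by the root of F. CPM use library totals. Nothing states whether replicates were handled together, so p-values measure the spread between these mice. DESeq2 1.42.0 was the other tool. The fit was tested on simulated data. Symbols (94.0% of IDs), transcripts and stem-loops came from GENCODE M21, promoters from RefSeq (GRCm38.p6). Shared sequence was measured in 50-base stretches. Floors cover counting error only, SDs the spread between libraries.

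Genes named in full were those called in at least 1 comparison (the 12 with the smallest p), the 10 with the highest mean CPM and every tested H1 gene. Others singled out (Hist2h2be, Hist2h2bb, Hist3h2ba, Hist3h2bb-ps, Hist1h2ad, Hist1h3g, Hist2h2ac, Hist2h2aa2, Hist1h2bp, Hist1h2br and those below the filter) were chosen after their values were seen. The histone genes and the gene lists were chosen with earlier results of these data known. Same-numbered libraries were not paired: in no comparison did every pair's deviations correlate above 0.1 (lowest -0.36, highest 0.76).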

Additional observations from a re-analysis of the deposited data

Results flagged for a closer look

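Among 190 sets of 4 to 7 libraries examined for a library far from the others of its group (24 named genes and the class sums and ratios, in 5 groups), 5 had one. Chance gives about 1 in 20 such sets. PS replicate 4 was high for 2 H2B genes: Hist1h2bj at 11.1 CPM against 6.5 to 7.26 CPM in the other PS libraries, and Hist1h2bn at 11.3 CPM against 3.42 to 4.22 CPM. The linker histone gene Hist1h1a stood at 43.4 CPM in rPS replicate 4 and at 8.93 to 15.5 CPM in the other rPS libraries. RO replicate 6 had a summed H2B level of 149 CPM, against 100.3 to 107 CPM in the other RO libraries. RO replicate 3, one of the T-cell-poor libraries, had an S phase sum of 888 CPM, against 1131 to 1163 CPM in the other RO libraries.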

How the results depend on the processing

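In every alternative the histone genes called in rPS against NT were all lower, and their number ran from 12 to 45 over all chromosomes. It was 37 as reported and under library sizes that leave out globin, antibody and mitochondrial genes and Malat1, 36 with DESeq2 size factors, 42 with DESeq2 and 33 with no filter on low counts. It dropped to 19 with all 28 libraries, 22 with only both groups in the fit, 12 with the S phase covariate and 23 without the T-cell-poor libraries but with NT replicate 5, an alternative chosen after seeing the data, as was the fit of chromosomes 1 to 11, which called 4 of 12. Of the 37 genes, 12 stayed called with the covariate and 19 with all 28 libraries. With the covariate 15.1% of all genes were lower, near the share of histone genes. Leaving out 1 library gave 31 to 45. The replicate block gave 34 for rPS against NT, 32 of them shared, and 0 for PS against NT, rPS against PS and rPS against R. The libraries share only a number, and no pair of groups had every numbered pair correlated.

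For PS against NT the count was 0 with all 28 libraries, with no filter and without the poor libraries but with NT replicate 5, 15 without the poor libraries, 7 by DESeq2 and 4 with the S phase covariate, and 0 to 11 on leaving out 1 library. For R against NT it was 6 without the poor libraries, 1 by DESeq2 and 0 to 1 on leaving out 1 library. For RO against NT it was 18, 8 and 0 to 12. With NT replicate 5 kept, the 6 and 18 became 0. For rPS against PS it was 0 with all 28 libraries and with the covariate, 5 without the poor libraries and 0 to 1 on leaving out 1. For rPS against R it was 0 with all 28 libraries, with 2 groups and with the covariate, 15 without the poor libraries, 14 by DESeq2 and 0 to 2 on leaving out 1. For rPS against RO it was 1 without the poor libraries and 1 by DESeq2. R against RO and the difference of differences stayed at 0 in every alternative run. For some fits the share of all genes that were lower is not given, as for the 7 and 4 in PS against NT. The same holds for the 5 in rPS against PS and the 15 in rPS against R. Such counts do not set histone genes against other genes.

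S phase genes lower in rPS than in NT numbered 7 without the poor libraries. For R against NT, S phase calls were 0 with all 28 libraries, 12 by DESeq2 and 1 each with no filter and with the block. They were 1 by DESeq2 for RO against NT, 3 by DESeq2 (1 higher, 2 lower) for PS against NT, 1 lower without the poor libraries and 0 with all 28 libraries, no filter or block, and 1 by DESeq2 and 1 without the poor libraries for both rPS against PS and rPS against RO. With the mitosis list in place of the S phase list, the median log2 histone ratio minus that of NT was 1.72 in rPS, 1.34 in PS, 1.57 in R and 1.33 in RO, against -0.64, 0.23, 0.34 and -0.13. With genes off chromosome 13 and all 28 libraries it was -0.21 in rPS, -0.02 in PS, 0.37 in R and -0.10 in RO. The causes were not tested. Over the 24 named genes in 8 comparisons, 81 of 4064 checks gained a call and 58 lost one. Depth limits Hist1h2bk, with 2 to 7 counts in each rPS library, Hist1h2bl, with 1 to 15, and Hist1h2bm, with 3 to 10. It also limits Hist2h2aa2, Hist1h2bp and Hist1h2br, each at 0.585 CPM or less in every rPS library.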
